A study of Drosophila melanogaster with 14 samples.

Results

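Transposable element (TE) transcripts were counted in heads of control Drosophila melanogaster, whose genotype the labels give as wild type. The members are all 5392 TE insertions with a FlyBase insertion number, read in the 3 control libraries of total RNA out of 14 samples in the series. A library was made from 500 ng of total RNA pooled over 6 heads (18 heads for the group), and the design text calls the libraries independent biological replicates. The crosses were kept at a constant temperature on standard food, ribosomal RNA was depleted and the library kit kept strand, per the labels. The labels state neither age nor sex of the flies, nor any driver line or transgene they may carry. No contrast with another genotype was made. The table lists TEs alone, so no marker of head tissue could be checked, and whether a family is used in fewer cells or at a lower level per cell cannot be told apart in pooled heads.

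TEs are sequences that move within a genome. LTR retrotransposons, among them the Ty3/gypsy, Ty1/copia and Bel-Pao groups, are flanked by long terminal repeats and copy themselves through a full-length RNA. Non-LTR retrotransposons also move through RNA and often leave truncated copies, and a few of them, HeT-A and TART, build the telomeres of the fly. DNA transposons with terminal inverted repeats (TIR) move by excision, and INE-1 is a short Helitron-derived element whose many old copies are thought to be immobile. In somatic tissue of flies, small interfering RNAs loaded on AGO2 are known to restrain TE transcripts.

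The 3 libraries held 289818, 277415 and 232572 counts in insertions, 799805 together. FlyBase names were found for 5390 insertions, which fell into 123 families, and the 2 others had 0 counts. Counts are whole reads that the authors assigned to each insertion. They were not divided by insertion length, so a larger count can come from a longer copy, and no insertion was ranked by its level per length.

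About as many insertions had 0 counts at this depth as were read. At least 1 count was present for 2832 insertions (52.5%), and 2560 had 0 counts in all 3 libraries. In a single library 2381, 2305 and 2240 insertions held counts. Of those with any count, 1827 were read in all 3 libraries, 440 in 2 and 565 in 1, and the last set held 0.363% of all counts. At 10 or more counts in each library stood 1008 insertions (18.7% of those listed), which together carried 96.8% of the counts. A count of 0 over the 3 libraries allows a share of up to 0.000375% of TE counts, where 3 counts are taken as the limit. Reads carry no molecular identifiers, and limits of this kind cover counting error only. They do not cover reads of an insertion that were assigned to another copy, since the handling of such reads is not stated.

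The counts were carried by few insertions, and the number was nearly the same in each library. In the libraries 72, 70 and 73 insertions held 50% of the counts (71.7 ± 1.53, SD, n = 3), and 469, 454 and 463 held 90% (462 ± 7.55). The 10 most counted insertions held 18.9%, 18.1% and 17.9%. Of the 100 most counted insertions of each library, 80 were shared by all 3. Families were concentrated less steeply: 13 families held 50% and 48 held 90% of the counts in every library.

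**Figure D1:**
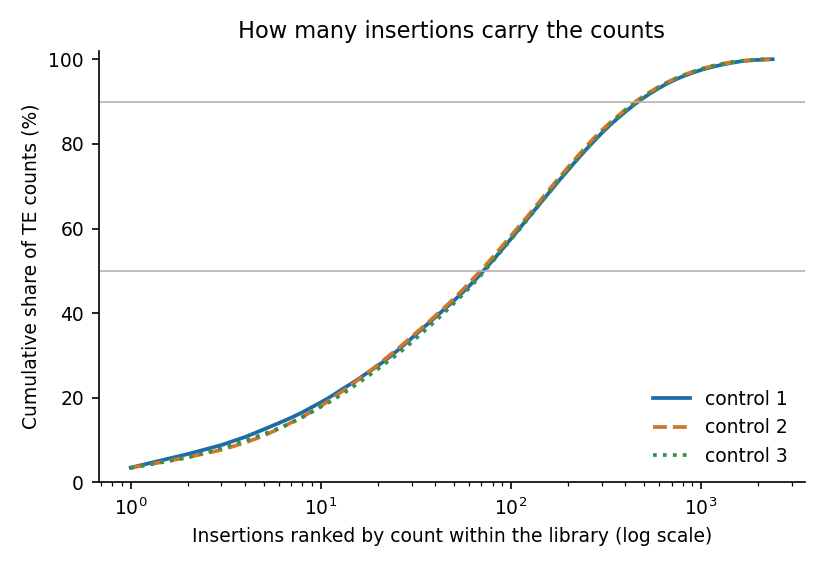
Cumulative share of TE counts (y axis, percent) over insertions ranked by their count within a library (x axis, log scale), with a line for each of the 3 control libraries and grey lines at 50% and 90%. The 3 curves lie on each other and pass 50% at 70 to 73 insertions and 90% at 454 to 469.

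LTR retrotransposons made up most of the counts. The 3 LTR groups together held 67.2% ± 0.562 of the counts (SD, n = 3) with 24.0% of the insertions listed. Ty3/gypsy elements held 49.9% ± 0.345, Bel-Pao elements 11.0% ± 0.389 and Ty1/copia elements 6.21% ± 0.237. Non-LTR elements outside the telomeres held 19.1% ± 0.516 with 18.3% of the insertions, and telomeric elements 2.47% ± 0.263 with 0.723%. TIR DNA transposons held 6.13% ± 0.102, less than their 13.9% of the insertions. The foldback element FB held 0.839% ± 0.058. INE-1, the only family of the Helitron class listed, was at the other end, with 41.4% of the insertions and 2.65% ± 0.00507 of the counts. Families whose class was not assigned here held 1.62%, mainly Xanthias (0.856%) and GATE (0.723%), which the shares of the other classes leave out. The mean number of counts per insertion listed, over the 3 libraries together, was 615 for Ty1/copia, 507 for telomeric, 422 for Ty3/gypsy, 333 for Bel-Pao, 155 for non-LTR, 65.4 for TIR and 9.50 for INE-1. The first 2 of these means rest on few members. The family copia held 44746 of the 49835 Ty1/copia counts with 35 of the 81 insertions, and 10 of the 39 telomeric insertions were read. None of the class values was divided by insertion length, so they do not compare levels per length between classes.

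**Figure D2:**
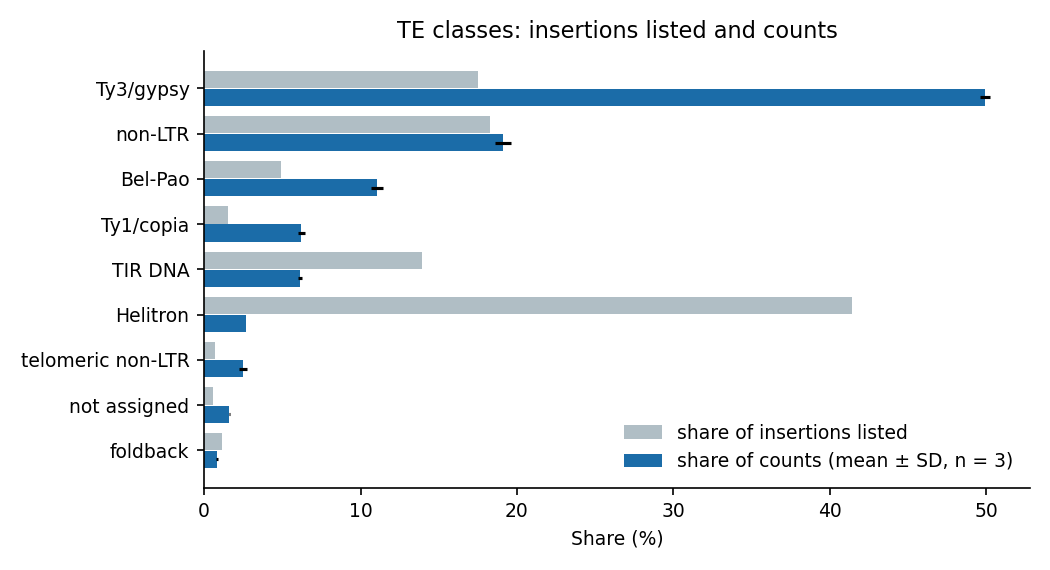
Share in percent (x axis) of the insertions listed (grey) and of the counts (blue, mean of 3 control libraries with SD as error bars) for each TE class. Ty3/gypsy elements hold 49.9% of the counts with 17.5% of the insertions, while INE-1, the Helitron class, holds 2.65% with 41.4%. Counts were not divided by insertion length.

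The non-LTR element Doc, the Bel-Pao element roo and the Ty1/copia element copia led the families. Doc held 7.18%, 7.75% and 7.49% of the counts in the 3 libraries, roo 7.53%, 6.59% and 6.74%, and copia 5.74%, 5.67% and 5.33%. The order of Doc and roo was reversed in control 1, so these neighbours did not differ beyond their spread. The Ty3/gypsy elements followed: opus (4.23% ± 0.0823), HMS-Beagle (3.97% ± 0.278), 297 (3.79% ± 0.033) and blood (3.77% ± 0.222). The ranges of HMS-Beagle, 297 and blood overlapped one another. The 10 families with the highest mean share together held 44.2% ± 0.127.

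Further down, the non-LTR element F held 3.14% ± 0.0306 and lay above INE-1 in each library. Burdock held 2.62% ± 0.124, 412 2.57% ± 0.125 and flea 2.49% ± 0.154, and their ranges overlapped one another. INE-1, at 2.65% to 2.66%, lay within the ranges of Burdock and 412 and above flea in each library. HeT-A, the main element of fly telomeres, held 2.13% ± 0.209, Stalker2 2.04% ± 0.0815 and Quasimodo 1.83% ± 0.137. Well-known families with smaller shares were jockey (1.49% ± 0.0981), the I element of hybrid dysgenesis (0.801% ± 0.0271), hobo, listed as H (0.660% ± 0.0258), gypsy (0.586% ± 0.0142) and the telomeric TART-A (0.334% ± 0.0545). HeT-Tag with 14 insertions, TART-B with 2 and Stalker3 with 1 had 0 counts in every library, the only families to do so.

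**Figure D3:**
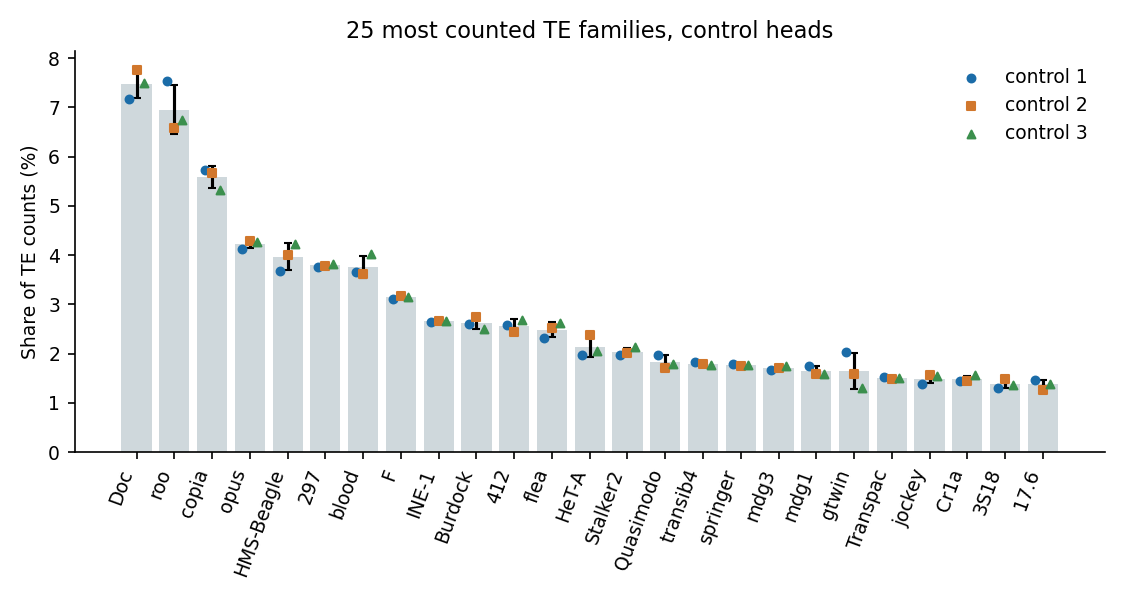
Share of TE counts in percent (y axis) for the 25 most counted families (x axis), with bars for the mean of 3 control libraries, error bars for the SD and 1 symbol per library. Doc, roo and copia lead at 7.47%, 6.95% and 5.58%, and gtwin shows a wide spread for its level, from 1.30% to 2.03%.

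Single insertions with the most counts came from 15 families. HMS-Beagle{}390 had 9322, 9600 and 7990 counts, the highest mean of all insertions, and held 85.2% of its family. The copy roo{}339 had 10144, 6923 and 5725 counts and was the most counted insertion of control 1. Doc{}406 had 6145, 4710 and 5233. In DNA transposons, transib4{}1579 had 5156, 4799 and 4006 counts. Within this list transib4{}1579 repeated closely, with a highest library 1.05 times the lowest once scaled by TMM factors, while roo{}339 reached 1.44 times.

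Among the next insertions, copia{}342 had 4315, 4503 and 3594 counts, gtwin{}19 had 5531, 4146 and 2772, and Doc{}163 had 3084, 4587 and 3070. Control 1 was the highest library for gtwin{}19 and control 2 for Doc{}163, at 1.63 and 1.58 times the lowest after scaling. The copies 297{}950 (3775, 3710 and 2993 counts) and opus{}292 (3649, 3398 and 3152) differed by no more than 1.07 times. The telomeric copy HeT-A{}6276 had 3071, 3349 and 2408 counts, and copia{}298 had 3236, 3326 and 2205. The other members of the 20 with the highest mean were Transpac{}1439, blood{}2438, blood{}1094, Xanthias{}6297, gypsy4{}553, accord{}818, Doc{}325, Burdock{}1187 and Doc{}CHKov1[Doc1420]. The last of the 20, Burdock{}1187, had 1977, 2615 and 1521 counts.

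Within a family, the counts usually sat in a few copies. For the 112 families with at least 100 counts and at least 2 insertions, the most counted insertion held a median of 42.9% of the family (lower and upper quartile 27.0% and 66.5%). In 48 of these families it held over 50%, and in 9 over 90%. The effective number of insertions, which is the inverse of the sum of squared shares and equals 1 when a single copy holds all counts, had a median of 3.28. The most counted insertion was the same in all 3 libraries in 89 of the 112 families and changed in 23.

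The families led by a single copy belonged to several classes. TART-A had 1 read insertion of 7, TART-A{}6259, with 861, 1100 and 717 counts. Among families with at least 500 counts and 5 insertions, the next shares were 98.4% for gypsy3{}1699, 97.0% for transib4{}1579, 93.6% for gypsy10{}3099 and 93.6% for gtwin{}19. In gypsy, an element whose env gene can make it infectious, gypsy{}615 (1423, 1318 and 1185 counts) held 83.7% of the family. In hobo, H{}84 (1624, 1640 and 1349 counts) held 87.4% although 43 of 59 insertions were read. These leading copies of TART-A, gypsy3, transib4, gypsy10, gtwin, gypsy and hobo kept the first place in all 3 libraries.

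At the other end, INE-1 counts were spread over 820 of 2234 insertions, and the effective number was 103.8. Its most counted copy, INE-1{}3381, had 313, 304 and 246 counts, 4.07% of the family. INE-1 was also read at fewer of its copies: 36.7% had at least 1 count, against 63.7% of the 3158 other insertions. Insertion length was not taken into account in these values. The top copy held 10.2% in F, 11.1% in Cr1a and 16.4% in Quasimodo, with effective numbers of 18.9, 23.0 and 8.70. Over the libraries together the most counted copies were F{}4764 (978, 843 and 746 counts) and Quasimodo{}360 (934, 690 and 777). Neither led in every library: F{}1370 (712, 800 and 801) was higher in control 3, and Quasimodo{}352 (974, 820 and 527) in controls 1 and 2. Doc lay between these ends, with 26.9% in Doc{}406 and an effective number of 6.58.

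In HeT-A, 9 of 16 insertions were read and HeT-A{}6276 held 51.7%. In roo the top copy held 40.9%, in 297 34.6%, in opus 30.2%, in Burdock 29.1%, in copia 27.7%, in flea 27.1% (flea{}148), in blood 23.7%, in jockey 22.0% (jockey{}1447), in 412 21.2% (412{}971) and in Stalker2 21.0% (Stalker2{}660). In blood, blood{}2438 had 2373, 2396 and 2324 counts and blood{}1094 had 2493, 2155 and 2268, so the first place passed from one to the other between libraries. The copy 412{}971 had 2002, 1272 and 1070 counts, flea{}148 had 1905, 1782 and 1675, and jockey{}1447 had 807, 996 and 811. Of these, 412{}971 was highest in control 1 and jockey{}1447 in control 2.

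**Figure D4:**
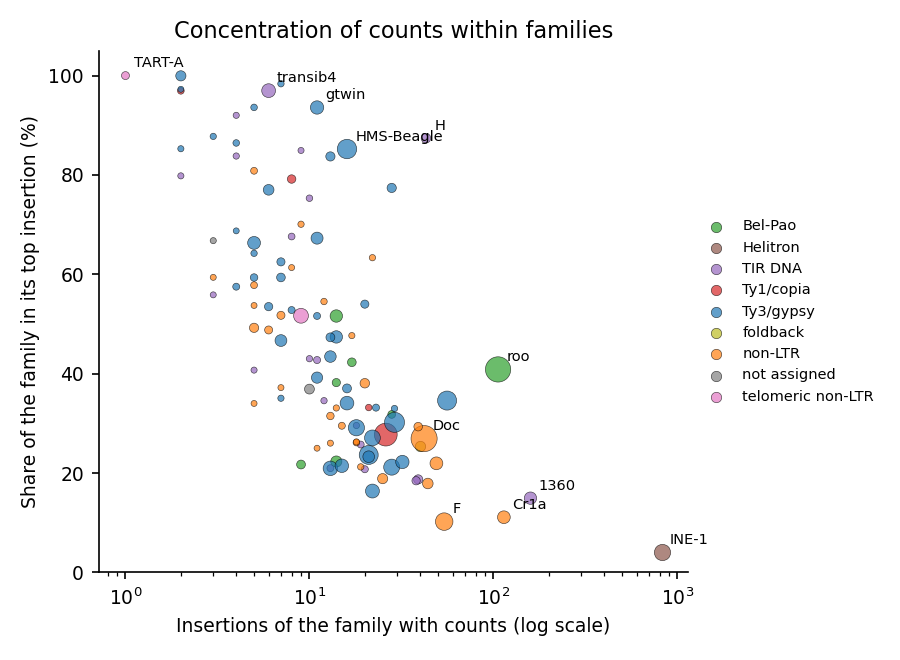
Share of a family's counts in its most counted insertion (y axis, percent) against the number of its insertions with counts (x axis, log scale), for the 112 families with at least 100 counts and 2 insertions. Points are coloured by class and their area grows with the family's counts. TART-A, transib4 and gtwin lie above 90%, while F, Cr1a and INE-1 lie between 4.07% and 11.1%.

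Family sums repeated between libraries far more closely than single insertions did. A sum over several copies has a smaller relative spread also where the copies vary independently. The direction alone therefore says nothing on how copies move together. The biological coefficient of variation (BCV), the spread between libraries left after counting error is taken off, was 27.1% over the 1015 insertions with enough counts and 7.67% over 115 families. The gap was also present at like depth and was narrower among the most counted features. For features with a mean of 100 to 1000 counts, the BCV was 29.6% over 365 insertions and 8.60% over 46 families, and at 1000 or more it was 12.9% over 46 insertions and 7.29% over 55 families. Without control 1, 2 or 3 the BCV ran from 25.5% to 27.9% for insertions and from 6.81% to 8.20% for families. Across the 2832 insertions read, the Pearson correlation of log2(CPM + 1) between pairs of libraries was 0.833 to 0.845, where CPM is counts per 1000000 TE counts of the library. Across families it was 0.990 to 0.993. These points share a library and a read total, and insertions are not independent replicates.

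Most large families moved little. For the 75 families with at least 1000 counts, the highest library was a median of 1.09 times the lowest after TMM scaling, and 2 families (2.67%) reached 1.5 times. These were accord, with 1959, 3067 and 1414 counts (1.85 times), and gtwin, with 5871, 4416 and 3016 (1.58 times). Both sit almost wholly in 1 insertion, accord{}818 holding 99.95% of its family with 1958, 3067 and 1412 counts. Accord was highest in control 2 and gtwin in control 1. The families with the smallest ratios included 297 at 1.01 times, INE-1 and F at 1.02 times and Transpac at 1.03 times.

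Of the 414 insertions with a mean of at least 100 counts, 57 (13.8%) differed by at least 2 times between libraries, and the median ratio was 1.30. The LTR element blood{}356 had 13, 26 and 425 counts, 297{}263 had 110, 10 and 223, and copia{}372 had 319, 99 and 12. HMS-Beagle{}26 had 137, 536 and 988 counts, I{}1483 had 86, 187 and 662, I{}112 had 540, 428 and 47, and diver{}121 had 153, 25 and 185. The high library was control 3 for blood{}356, 297{}263, HMS-Beagle{}26, I{}1483 and diver{}121, and control 1 for copia{}372 and I{}112. The remaining members of the 10 largest ratios had 0 counts in at least 1 library: Burdock{}74 with 515, 0 and 123, 412{}884 with 198, 161 and 0, and opus{}336 with 357, 0 and 0. Control 1 was the highest library for each of these, so control 2 was the highest for none of the 10.

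Zeros of this kind recurred. Of 873 insertions with at least 30 counts in a library and at least 10 expected in some library from its total, 58 (6.64%) had 0 counts where at least 10 were expected. They belonged to 28 families, with 6 in F and 4 each in 412, Doc, opus and roo. Insertions with any count numbered 54 in F, 28 in 412, 42 in Doc, 29 in opus and 106 in roo. The number screened was not counted by family, so these tallies are not rates. Such a zero was found in 36 of the 446 LTR insertions screened (8.07%), in 18 of the 227 non-LTR insertions (7.93%) and in 4 of the 200 others (2.00%), and no difference between these classes was tested. The zeros fell in control 1 for 23 insertions, in control 2 for 22 and in control 3 for 27, some having 0 in 2 libraries. The family sums of the 28 families had a highest library at a median of 1.09 times the lowest, from 1.01 times for 297 to 1.37 times for baggins and 1.55 times for Bari1. For the families with the most such zeros the ratio was 1.02 times for F, 1.04 times for opus, 1.08 times for 412, 1.09 times for Doc and 1.139 times for roo.

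The movement of a family's copies was described by comparing variances. The variance of a family's CPM over the 3 libraries was smaller than the summed variances of its copies in 43 of the 74 families with at least 1000 counts and 2 insertions, larger in 30 and equal in TART-A, whose counts lie in 1 copy. The ratio of the variances had a median of 0.70. With only 3 libraries a ratio below 1 is common also where copies vary independently, so neither this median nor the tally shows that copies moved against each other. The ratio was 0.0107 for 297, 0.0112 for INE-1, 0.0237 for I, 0.0426 for F and 0.143 for opus, and it was 3.22 for Cr1a and 2.96 for HeT-A. Examples chosen after their values were seen were blood{}356 and blood{}1389 (630, 593 and 144 counts), which summed to 643, 619 and 569. I{}112 and I{}1483 summed to 626, 615 and 709. Once scaled by library totals, the highest sum was 1.10 times the lowest for the blood pair and 1.41 times for the I pair. In both pairs a copy that was low in control 3 stood beside one that was high there.

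**Figure D5:**
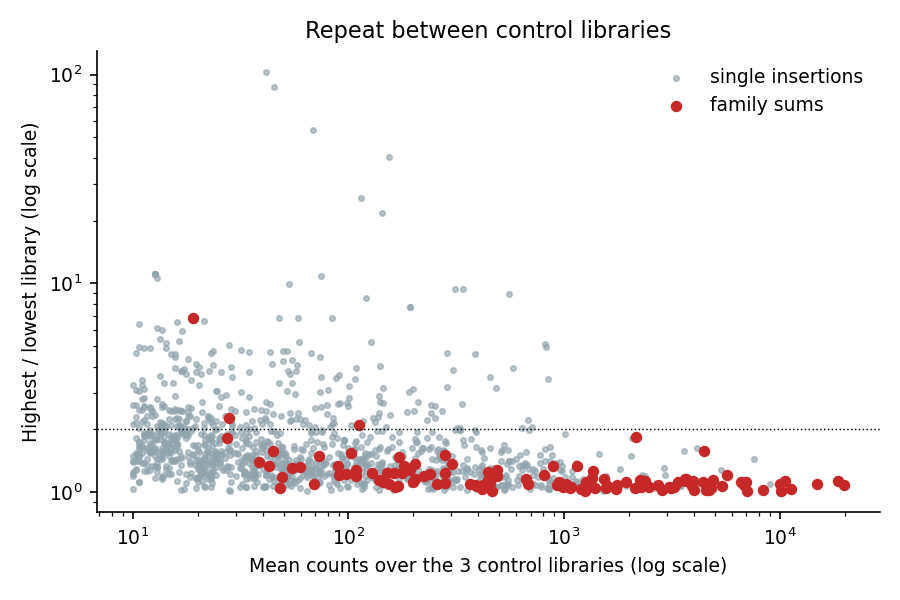
Ratio of the highest to the lowest of the 3 control libraries after TMM scaling (y axis, log scale) against mean counts (x axis, log scale), for single insertions with a mean of at least 10 counts (grey) and for family sums with at least 30 counts (red). Features with 0 counts in a library are not drawn. The dotted line marks 2 times, which 57 of the 414 insertions with a mean of at least 100 counts reached or passed, 3 of them with 0 counts in a library.

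The BCV of single copies was also computed within families. Over insertions with enough counts, the BCV was 10% for 121 copies of INE-1, 12.8% for 17 copies of the DNA transposon S, 12.9% for 10 of Burdock, 14.4% for 16 of FB and 17.7% for 45 of Cr1a. For the 20 copies of the DNA transposon HB it was at the lower limit of the estimate. It was 57.4% for 13 copies of I, 55.9% for 16 of blood, 52.4% for 19 of copia, 47.8% for 28 of 297, 38.9% for 19 of 412, 34.1% for 62 of roo and 30.8% for 30 of Doc. For blood it was 31.9% without control 3 and for flea, at 33.6% over 16 copies, 19.2% without control 1. Other values moved too. With 1 library left out, I ran from 45.9% to 63.1%, copia from 40.4% to 57.5% and 297 from 42.1% to 58.0%. By class the values were 46.8% for Ty1/copia, 31.0% for Bel-Pao, 30.0% for Ty3/gypsy, 26.8% for non-LTR, 18.3% for TIR, 14.4% for foldback and 10% for INE-1. The Ty1/copia value ran from 37.7% to 50.5% with 1 library left out. No difference between families or classes was tested.

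Some copies of a family carried exactly the same counts in all 3 libraries. Of 739 insertions with at least 100 counts, 20 (2.71%) fell into 8 such groups, each within 1 family, and 0 groups joined different families. The group with the most counts was in the Ty3/gypsy element mdg3, where mdg3{}119, mdg3{}144 and mdg3{}1351 each had 931, 858 and 774 counts. The group with the most copies was in the Bel-Pao element diver, where 4 copies each had 186, 204 and 171. The pairs were blood{}335 and blood{}1470 with 598, 481 and 590, opus{}374 and opus{}760 with 255, 479 and 254, copia{}131 and copia{}324 with 443, 54 and 83, HMS-Beagle{}101 and HMS-Beagle{}1214 with 67, 0 and 63, and gtwin{}1128 and gtwin{}1131 with 35, 35 and 30. In flea 3 copies each had 140, 83 and 64.

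How reads that match several copies were assigned is not stated in the labels or the table, and its part in these identical values was not tested. The 20 copies held 2.22% of all counts. Each was counted as a separate insertion in the tallies above. HMS-Beagle{}101 and HMS-Beagle{}1214 both stood among the insertions at 0 where counts were expected. Both copia{}131 and copia{}324 stood among those that differed by at least 2 times. They made up 56.5% of mdg3 and 55.8% of diver. If each group is counted once, mdg3 goes from 13602 to 8476 counts over the 3 libraries and diver from 4024 to 2341, while copia goes from 44746 to 44166. These copies, and any others whose reads match several places, are uncertain as single insertions. The sums of their families are uncertain too. With each group counted once, the share of mdg3 over the 3 libraries together goes from 1.70% to 1.07% and that of diver from 0.503% to 0.297%. Copies that share only part of their reads are not found by a screen for equal counts.

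FlyBase names 55 of the listed insertions for a host gene, 0 of them in INE-1. At least 1 count was present for 43 (78.2%), and 28 (50.9%) had 10 or more in each library. Among the 3103 other insertions outside INE-1 these shares were 63.4% and 27.7%. The difference was not tested. Together the 55 held 2.99% ± 0.110 of the counts, and 1.70% over the 3 libraries without the most counted of them. Whether their reads came from the TE or from the transcript of the host gene cannot be told apart from these counts. The strand setting of the counting is not given either. The same limit holds for any other listed insertion that lies in a gene, since positions were not at hand.

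That most counted member was Doc{}CHKov1[Doc1420], with 3585, 3708 and 3041 counts, 17.3% of Doc and the ninth highest of all insertions. It lies in CHKov1, a choline kinase-like gene at chr3R:25323156-25329316 (RefSeq, Release 6 assembly), and the allele with this Doc insertion is known for resistance to the sigma virus of flies. In the copia-group family 1731, 1731{}pyd[1272] had 981, 1079 and 678 counts and held 79.2% of the family. It is named for pyd, a scaffold protein of cell junctions (chr3R:8827068-8931896). FB{}rdgA[FB.1626] had 718, 590 and 412 counts and is named for rdgA, the diacylglycerol kinase of photoreceptors (chrX:8907068-9029476).

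I{}Sirt6-iso-1a, named for a sirtuin gene, had 470, 438 and 298 counts and led the I family over the libraries together, but not in every library. S{}AGO2[S1008], named for the Argonaute of the small interfering RNA pathway (chr3L:15554113-15561042), had 97, 110 and 62 counts. Bari1{}Cyp12a4[Bari1-1386], named for a cytochrome P450 gene, had 27, 65 and 12, and Bari1{}Jheh[Bari1855], an insertion beside juvenile hormone epoxide hydrolase genes, had 12, 17 and 9. The insertion pogo{}Kmn1[pogo108] had 0 counts in each library. All but I{}Sirt6-iso-1a and Doc{}CHKov1[Doc1420] among these gene-named insertions were chosen after their values were seen. The highest library differed among them, control 1 for FB{}rdgA[FB.1626] and control 2 for 1731{}pyd[1272] and S{}AGO2[S1008]. Control 3, the library with the fewest TE counts, had the fewest counts of each of these insertions that was read. In CPM it was also the lowest for all of those read but Doc{}CHKov1[Doc1420], where control 1 was lowest.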

How the data were processed

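TE reads were picked out by the authors with sortmerna, using FlyBase release 6.12 as the TE reference, as the design text states. Trimmomatic 0.36 and DESeq2 1.14.1 are named in the submitters' processing notes. The deposited table holds raw read counts per insertion and library, not normalised. The counter, its strand setting and its handling of reads that match several copies are stated neither in the labels nor in the table, so reads of near-identical copies may have been shared or passed between insertions. The 3 control columns were used, and the 3 other count columns of that table and the small RNA table were not. Depth was 232572 to 289818 counts per library.

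Families were taken from the insertion names (3 spellings merged), and classes from general knowledge. The members and lists were chosen with earlier results of these data known. Shares were computed within a library. BCV came from edgeR 4.0.16 in R 4.3.3 (common dispersion, intercept only, TMM factors, default low-count filter), after a test on simulated data, with DESeq2 1.42.0 as an alternative. Named families were the 15 with the highest share and 11 fixed ones, which overlap; 1 of the 11, a DNA transposon whose name is a bare number, is not reported here. Named insertions were the 20 with the highest mean CPM, the top copy of each named family and the 10 largest library ratios among those with a mean of at least 100 counts. The families with the 5 highest and 5 lowest top-insertion shares were also named. No group was compared, so no p-values were computed.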

Additional observations from a re-analysis of the deposited data

How the results depend on the processing

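Leaving out 1 of 3 libraries cannot move a mean share by its SD, so that setting says nothing on the stability of the shares. Without Doc, the most counted family, shares became 53.97% for Ty3/gypsy, 12.6% for non-LTR, 11.9% for Bel-Pao, 6.72% for Ty1/copia, 6.63% for TIR, 2.87% for INE-1, 0.907% for FB and 1.75% for unassigned families. With identical copies counted once, an alternative chosen after seeing the data, they were 49.5% for Ty3/gypsy, 2.69% for INE-1, 1.64% for unassigned families and 44.3% for the 10 leading families, and 69.7 insertions held 50% of the counts. With only insertions of at least 10 counts, INE-1 held 2.49% and 449.7 insertions held 90%. The median share of the top insertion was 45.5% as a mean over libraries and 38.1% in families of at least 1000 counts. The BCV of insertions was 49.3% with no low-count filter and 29.8% as DESeq2's median. Leaving out a library gave 25.5% to 27.9% for insertions and 6.81% to 8.20% for families. The 58 insertions at 0 where counts were expected became 12 at a minimum of 100 counts, and 31 to 33 with 1 library left out, since fewer libraries can hold a zero. Counts per length and positions were not run. Depth and the unstated handling of reads that match several copies limit what can be said of the 2560 insertions at 0. No paired analysis was possible because no groups were compared.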
